A study of Mus musculus with 3 samples.

Results

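The clustered protocadherin genes were described in ATAC-seq peak lists of mouse islets. They are cell-surface cadherins encoded in 3 neighbouring clusters, Pcdha, Pcdhb and Pcdhg, on the plus strand of chromosome 18. The members were the protein-coding genes of that chromosome whose symbols begin with Pcdha, Pcdhb or Pcdhg, and 24 of 22359 protein-coding genes qualified. The count is small because the annotation used joins most alpha isoforms under the symbol Pcdha11 (ENSMUSG00000007440), with 10 starts, and all annotated gamma isoforms under Pcdhgc5 (ENSMUSG00000023036), also with 10 starts. Pcdha3 and 21 Pcdhb genes make up the rest, and the members carry 46 annotated starts in all. On mm9 the alpha cluster runs from 37089939 to 37347311, the beta cluster from 37424652 to 37681073 and the gamma cluster from 37833989 to 38001527 as annotated.

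In these clusters each isoform begins at a variable exon of its own, which codes for the extracellular cadherin repeats and the membrane span and has its own promoter. Alpha and gamma variable exons are spliced to 3 constant exons at the end of their cluster, which code for a shared cytoplasmic part, whereas each beta gene is complete in its single exon. The family is best known from neurons, where most promoters are chosen at random per cell and give each cell a surface identity, where CTCF and cohesin loop promoters to distant enhancers, and where the C-type exons (Pcdhac1, Pcdhac2, Pcdhgc3, Pcdhgc4 and Pcdhgc5) are used more evenly. Islet endocrine cells express many genes that are otherwise typical of neurons.

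There were 3 libraries of dissociated islet cells, 1 from wild type mice (WT) and 1 each from Taf4 KO mice 1 week and 5 weeks after inactivation of Taf4, which codes for a subunit of TFIID, the factor that starts transcription by RNA polymerase II. The strain label of all 3 reads C5LBl6. In the Taf4 KO animals, floxed Taf4 was removed in adults by a tamoxifen-inducible Cre-ERT2 under an insulin gene promoter, so beta cells lost Taf4 and the other islet cells kept it. The study's methods state that animals of both genotypes received tamoxifen, while the label of the control reads only wild type. Each library is a bulk of all islet cell types, and the number of animals behind each is not given in the sources used here. There was 1 library per group, so the spread between animals is unknown and no p-value is given. In such bulk material, fewer accessible cells and less accessibility per cell cannot be told apart.

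The lists held 60898 peaks in WT, 150354 at 1 week and 151725 after 5 weeks, and covered 39.4, 99.3 and 105 Mb. Read backwards from the fold and p of the caller, the background depth exceeded that of WT by a factor of 1.76 at 1 week and 2.57 after 5 weeks, so a weak peak had more chance of being listed in either Taf4 KO library. Values of a peak are its fold over the local background and its −log10 q, as the caller gave them within its own list. The median −log10 q of a whole list was 3.71 in WT, 2.08 at 1 week and 2.38 after 5 weeks. Of 11 endocrine markers 7 were called in WT, 9 at 1 week and 10 after 5 weeks. The beta cell genes Ins1, Ins2, Iapp, Mafa, Pdx1 and Nkx6-1 had a promoter peak in every list. Ppy, the gene of pancreatic polypeptide, had no promoter peak in any list, and Gcg and Sst, which mark alpha and delta cells, had none in WT. Neuronal markers with a promoter peak numbered 3, 2 and 4 of 7 matched in the annotation, in the order WT, 1 week, 5 weeks. For 5 endothelial markers the counts were 1, 3 and 4, and for 5 stellate and fibroblast markers they were 0, 0 and 3. The part of these other cells in the values below was not tested.

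Few of the members had an accessible promoter in any library. A promoter peak, meaning a peak in the window that starts 1000 bp before an annotated start and ends 100 bp after it, was listed for 4 of 24 members in WT, or 16.7% (Wilson 95% interval 6.68 to 35.9). At 1 week 3 of 24 members had one, or 12.5% (4.34 to 31.0), and at 5 weeks 5 of 24, or 20.8% (9.24 to 40.5). The share over every protein-coding gene was 59.0% in WT, 55.9% at 1 week and 65.6% after 5 weeks. Counted by start, 13 of 46 member starts had a peak in WT, 7 at 1 week and 13 after 5 weeks, against 57.0%, 53.0% and 63.4% of all 46015 annotated starts.

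The members called were Pcdha11, Pcdhb1 and Pcdhgc5 in all 3 lists, Pcdhb17 in WT only, and Pcdhb11 and Pcdhb14 at 5 weeks only. Of the 4 members called in WT, 3 were called again at 1 week and 3 at 5 weeks, and Pcdhb17 was the missing member both times. Of the genes called in WT over the whole genome, 14.5% were not called at 1 week and 1.89% were not called at 5 weeks. Of the 20 members without a WT promoter peak, 0 had one at 1 week and 2 after 5 weeks, against 13.3% and 18.9% of all genes that lacked it in WT. The net changes of -1 and 1 gene rest on weak peaks. For the Pcdhb17 peak of WT the −log10 q was 1.52, which ranks it at percentile 8.11 of its list. The Pcdhb14 peak at 5 weeks had 1.80, and the Pcdhb11 peak had 1.14, at percentile 1.38. With only peaks of −log10 q of at least 3, the count was 3 in every list.

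Because the annotation joins isoforms, the variable exons were also read from the mm9 sequence as open reading frames of at least 2000 bases on the plus strand. This gave 58 exons, 14 alpha, 22 beta and 22 gamma, the same numbers as the RefSeq symbols of each family, and exons were named by their order. Of the 58 exons 40 overlapped an annotated coding exon and 18 did not. In what follows a peak at the start of an exon is one from 1000 bp before to 100 bp after its coding start. A peak within the exon is one from 101 to 2400 bp after the coding start that does not reach the start window.

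In WT 18 of 58 exons had a peak at their start, or 31.0% (20.6 to 43.8). At 1 week there were 12, or 20.7% (12.3 to 32.8), and at 5 weeks 21, or 36.2% (25.1 to 49.1). A peak at a coding start was found for 46.2% of all genes in WT, 43.4% at 1 week and 52.4% after 5 weeks. These shares count a gene if any of its coding starts had a peak, whereas an exon has only its own start. The families differed within each list. In WT 5 of 14 alpha, 2 of 22 beta and 11 of 22 gamma exons were called, at 1 week 4, 1 and 7, and at 5 weeks 6, 3 and 12. Of the 18 exons without an annotated exon 6, 5 and 8 were called. Exons called in all 3 lists were Pcdha9, Pcdhac1 and Pcdhac2 of the alpha cluster, Pcdhb1 of the beta cluster, and Pcdhga5, Pcdhga6, Pcdhga7, Pcdhgb6, Pcdhgb7, Pcdhgc3 and Pcdhgc4 of the gamma cluster. The order of the libraries depended on the setting. With lists cut to the WT number of peaks the counts were 18, 9 and 12, with lists cut to the WT covered length 18, 9 and 7, and with peaks rescaled to the WT depth 18, 9 and 11. With peaks of −log10 q of at least 3 they were 10, 7 and 12, with 5 weeks above WT, and with at least 5 they were 4, 6 and 7, with both Taf4 KO lists above WT.

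**Figure D1:**
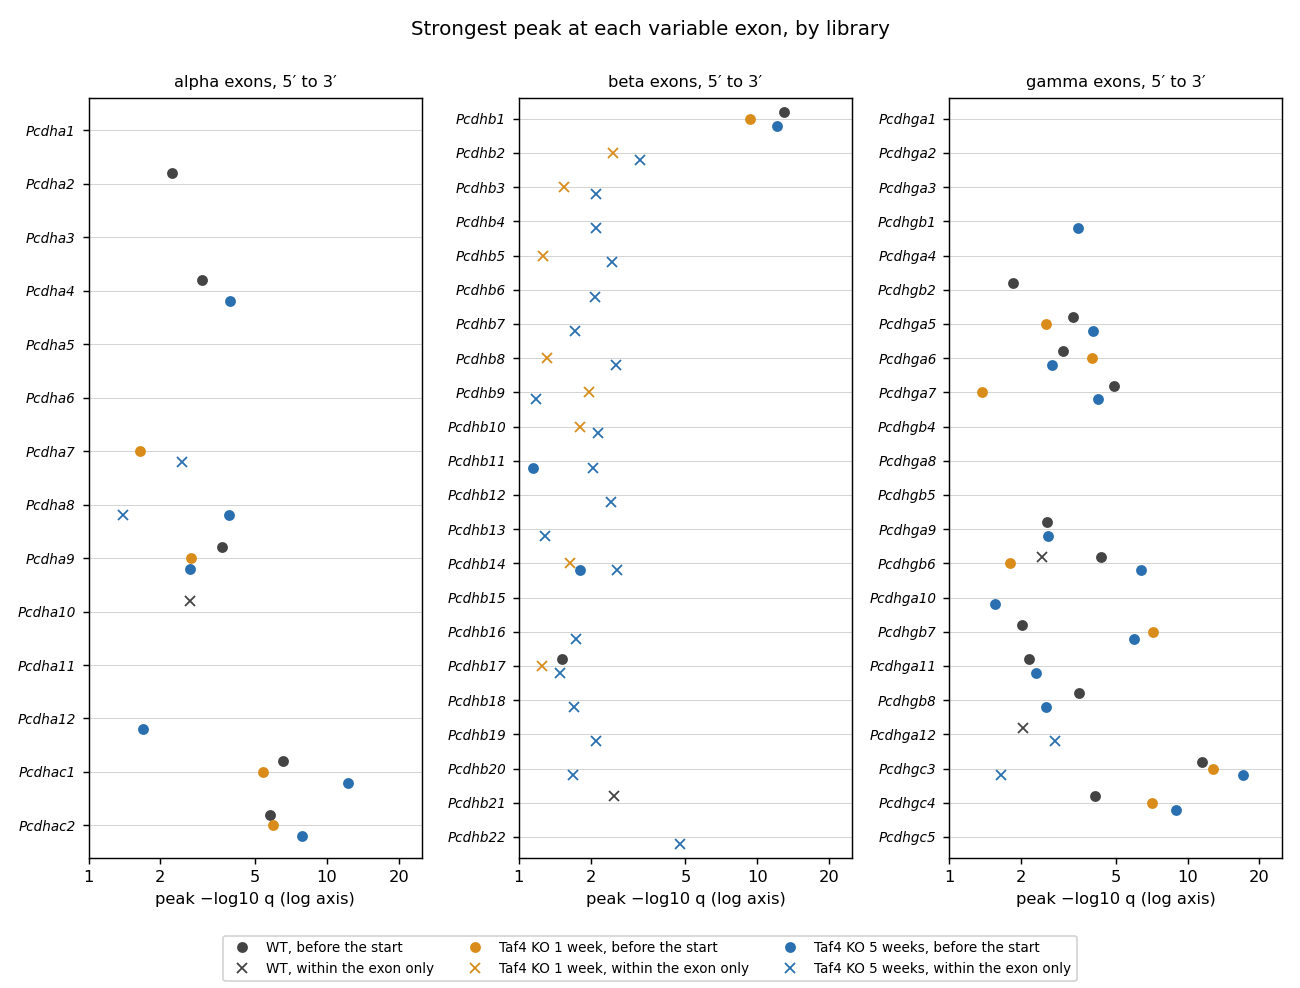
Strongest peak at each of the 58 variable exons, in genomic order within each cluster, where the horizontal axis is the −log10 q of the peak on a log axis, dots are peaks at the coding start and crosses are peaks within the exon that do not reach it, with WT in dark grey, Taf4 KO 1 week in orange and Taf4 KO 5 weeks in blue. Of the beta exons Pcdhb1 alone has a dot in all 3 colours, whereas most beta exons carry blue crosses between 1.18 and 4.73.

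In WT the first 4 starts by −log10 q were those of Pcdhb1 and of the C-type exons Pcdhgc3, Pcdhac1 and Pcdhac2. Other exons passed some C-type exons, as Pcdhga7 and Pcdhgb6 passed Pcdhgc4 in WT and Pcdhgb7 passed Pcdhgc4, Pcdhac2 and Pcdhac1 at 1 week. The start of Pcdhac1, at 37249790, showed a −log10 q of 6.52 in WT, 5.40 at 1 week and 12.2 after 5 weeks, with folds of 4.27, 3.25 and 3.89. Pcdhac2, at 37303623, had 5.78, 5.96 and 7.83. Pcdhgc3, at 37966202, had 11.5, 12.7 and 17.1, the highest value at any variable exon in both Taf4 KO lists. Pcdhgc4, at 37975187, had 4.10, 7.10 and 8.94. For these exons the −log10 q was highest in the 5 week list, which is also the deepest. Within their own lists the percentiles of Pcdhgc3 were 83.9 in WT, 96.9 at 1 week and 94.0 after 5 weeks. Those of Pcdhac2 were 65.2, 87.2 and 80.7, and those of Pcdhgc4 were 53.6, 90.0 and 83.2. For Pcdhac1 the percentiles were 68.8, 85.5 and 88.8, highest at 5 weeks.

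Pcdhgc5, the last C-type exon, whose coding start is at 37979329, had no peak at its start in any list. The nearest peak lay behind its reading frame, in the intron before the first constant exon, from 37982100 to 37982588 in WT. It showed a −log10 q of 4.27 in WT, 9.56 at 1 week and 12.6 after 5 weeks. Thus 4 of 5 C-type exons were called in each list, against 12, 7 and 14 of the 31 other alpha and gamma exons. Among C-type exons, Pcdhac1, Pcdhac2 and Pcdhgc3 stayed called under all 5 stricter settings of the lists, as did Pcdhb1. In WT only the thresholds of −log10 q shorten the list, and the other settings leave it as deposited by construction. Pcdhgc4 was missing in 1 case, in WT with peaks of −log10 q of at least 5.

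Pcdhb1, the first beta gene, stood apart from the rest of its cluster. Its peak spanned the coding start at 37424652, from 37424321 to 37424959 in WT, and showed a −log10 q of 12.9 in WT, 9.34 at 1 week and 12.1 after 5 weeks, with folds of 5.67, 4.04 and 3.79. It lay at the 86.7, 93.8 and 88.6 percentiles of the lists. Pcdhb1 is also the beta exon that shares least sequence with the others, since 24.3% of its protein words of 5 residues occur in another annotated variable exon, whereas 53.4% to 83.7% did for the other beta exons. From 101 to 2400 bp after its coding start 0% of 40-base words recur in the locus.

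The alpha exons other than Pcdhac1 and Pcdhac2 had few start peaks. In each list these had a lower −log10 q than the start peaks of Pcdhac1 and Pcdhac2. Pcdha9, at 37157534, was called in all 3 lists, with a −log10 q of 3.65 in WT, 2.69 at 1 week and 2.67 after 5 weeks. Its percentiles were 49.3, 66.0 and 55.2. Pcdha4 had 2.99 in WT and 3.93 at 5 weeks, at percentiles 41.5 and 66.8, and no peak at 1 week. The remaining calls fell in 1 list each, namely Pcdha2 in WT at 2.23, Pcdha7 at 1 week at 1.64, and Pcdha8 and Pcdha12 at 5 weeks at 3.88 and 1.69. Pcdha1, Pcdha3, Pcdha5, Pcdha6, Pcdha10 and Pcdha11 had no peak at their start in any list. Of these, Pcdha10 had a WT peak within the exon, from 37165120 to 37165573 at 2.67.

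The gamma exons had the largest share of called starts in each list as deposited. The alpha share was larger with peaks of −log10 q of at least 5 in WT, at 2 of 14 against 1 of 22, and at 1 week, at 2 of 14 against 3 of 22. It was also larger at 5 weeks after rescaling to the WT depth, at 4 of 14 against 6 of 22. Pcdhga5 showed a −log10 q of 3.32 in WT, 2.54 at 1 week and 4.01 after 5 weeks. Pcdhga6 had 2.99, 3.96 and 2.69, and Pcdhga7 had 4.93, 1.38 and 4.20. Pcdhgb6 had 4.32, 1.80 and 6.36. Of these 4 exons Pcdhga6 alone had its highest value at 1 week.

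Pcdhgb7 was likewise highest at 1 week, with 2.02 in WT, 7.16 at 1 week and 5.99 after 5 weeks. Its percentiles were 23.7, 90.2 and 75.5. Pcdhga9, Pcdhga11 and Pcdhgb8 were called in WT, at 2.57, 2.15 and 3.49, and at 5 weeks, at 2.61, 2.31 and 2.56, but not at 1 week. Pcdhgb2 was called in WT only, at 1.85, and Pcdhgb1 and Pcdhga10 at 5 weeks only, at 3.46 and 1.55. Pcdhga1, Pcdhga2, Pcdhga3, Pcdhga4, Pcdhgb4, Pcdhga8, Pcdhgb5 and Pcdhga12 had no peak at their start in any list. The first 4 of these, with Pcdhgb1 and Pcdhgb2, fill the 5′ end of the cluster, where 1 exon was called in WT, 0 at 1 week and 1 after 5 weeks.

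Start peaks of the gamma cluster sat on the coding start itself, and those of the alpha cluster a little downstream. The midpoints of the start peaks had a median distance from it of 25 bp in WT, 108 bp at 1 week and 106.5 bp at 5 weeks over all clusters, counted downstream. In the gamma cluster the medians were 23, 24 and -17.75 bp. For the alpha cluster they were 191.5, 253.5 and 240 bp. The share of gamma exons covered by a peak was highest from -50 to 75 bp in WT, where 10 of 22 were covered. The corresponding 1 week and 5 week maxima were 7 and 12 of 22.

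**Figure D2:**
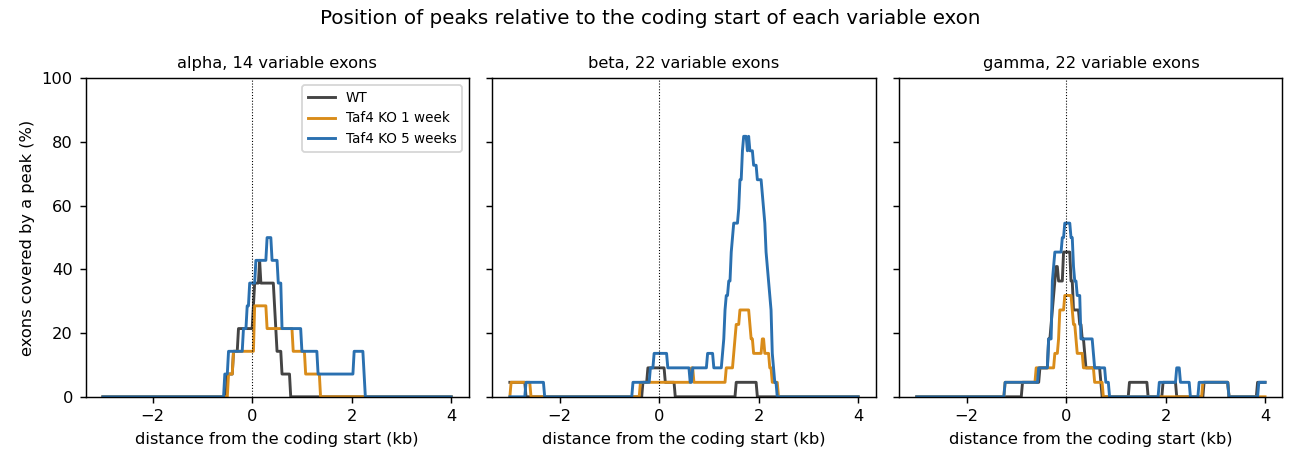
Share of variable exons covered by a peak, in percent, against the distance from the coding start in kb, with a panel for each cluster and a line for each library. Alpha and gamma exons have their maximum near the coding start in all 3 libraries, whereas beta exons of the Taf4 KO 5 weeks library have theirs 1700 to 1800 bp downstream, where 18 of 22 are covered.

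In both Taf4 KO lists more beta exons were marked within the exon than at the start. In WT 1 of 22 beta exons had a peak within it and none at its start, Pcdhb21, with a −log10 q of 2.51. At 1 week there were 8, or 36.4% (19.7 to 57.0), and at 5 weeks 17, or 77.3% (56.6 to 89.9). In the alpha cluster the counts were 1, 0 and 1 of 14 and in the gamma cluster 1, 0 and 1 of 22. Over all genes the shares were 4.37%, 6.00% and 6.27% by the same rule, taken over every coding start of a gene. Over the 3858 genes with 1 coding exon they were 3.91%, 11.9% and 9.69%.

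Counting also the exons that had a peak at their start as well, 19 of 22 beta exons held such a peak at 5 weeks. The other 3 were Pcdhb1, Pcdhb15 and Pcdhb21, so Pcdhb21 was marked in WT and not at 5 weeks. The 1 week exons were Pcdhb2, Pcdhb3, Pcdhb5, Pcdhb8, Pcdhb9, Pcdhb10, Pcdhb14 and Pcdhb17, and all 8 were marked again at 5 weeks. In 7 of these 8 the peaks of both lists overlapped, and in Pcdhb9 they did not. The midpoints lay 1426 to 2294.5 bp after the coding start at 1 week, with a median of 1765.75 bp, and 1454.5 to 2002 bp at 5 weeks, with a median of 1811.5 bp.

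These peaks were weak. At 5 weeks their −log10 q ranged from 1.18 to 4.73 and 6 of 19 lay at or above the median of their list. Their fold ranged from 1.94 to 2.77. The strongest were in Pcdhb22, the last beta gene, with 4.73 from 37679578 to 37679890, and in Pcdhb2, with 3.21 from 37455942 to 37456806. At 1 week the range was 1.25 to 2.47, with the highest value again in Pcdhb2. Under stricter settings most were absent. With peaks of −log10 q of at least 3, 0 exons in WT, 0 at 1 week and 2 after 5 weeks remained, and with peaks rescaled to the WT depth the counts were 1, 1 and 1. Most such weak peaks would not be detectable at the WT depth, so a difference from WT is not shown.

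**Figure D3:**
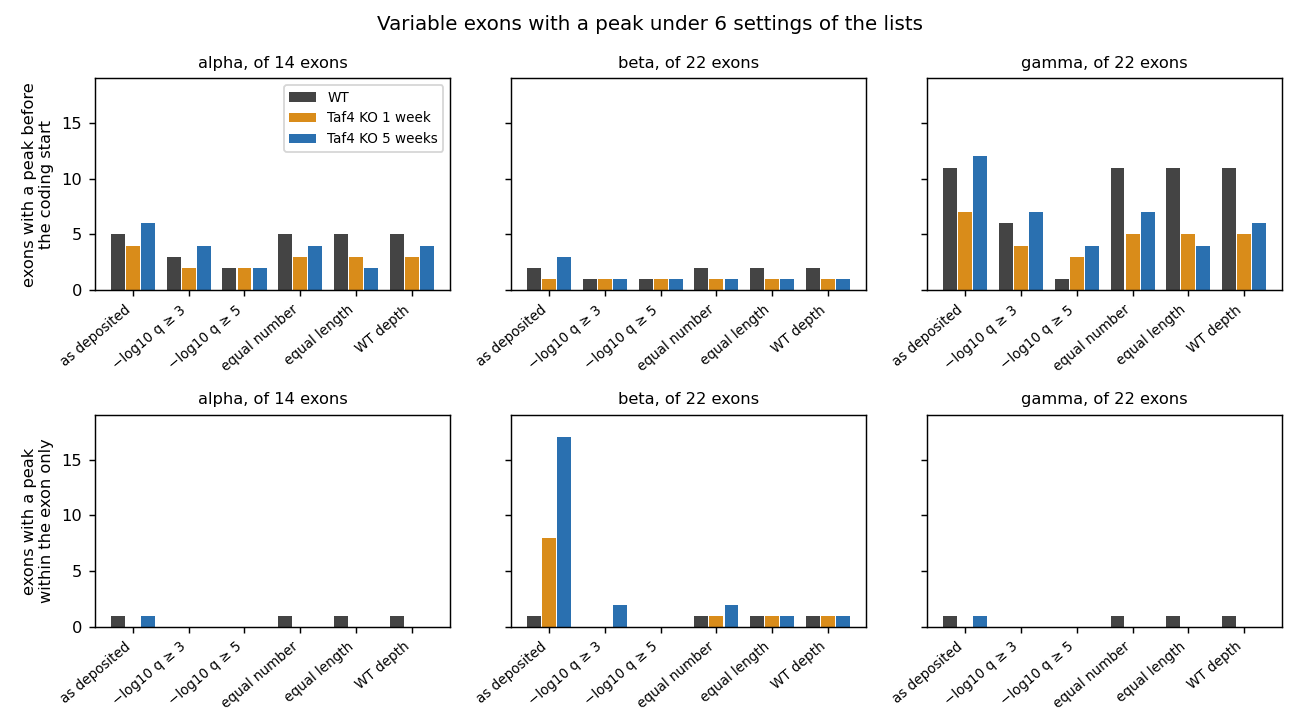
Number of variable exons with a peak at the coding start (upper row) and with a peak within the exon only (lower row) for each cluster, as deposited and under 5 stricter settings of the lists, with a bar for each library. The 17 beta exons marked within the exon at 5 weeks come down to between 0 and 2 under every stricter setting. The settings of equal number, equal length and WT depth leave the WT list as deposited.

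The part of the beta exons that carried these peaks was rich in G and C. From 1401 to 2400 bp after the coding start GC content was 56.8% ± 2.96 (SD, n = 22 exons), against 47.3% ± 1.94 from 101 to 1400 bp, and it was higher in 21 of 22 exons. The peaks themselves had a median GC content of 59.5% at 5 weeks and 59.1% at 1 week. The same step was present in alpha exons, from 50.5% ± 2.54 to 57.1% ± 3.53 (SD, n = 14), and in gamma exons, from 49.8% ± 2.58 to 55.6% ± 2.56 (SD, n = 22), which had few such peaks. The starts of beta exons, from 1000 bp before to 100 bp after, held 38.3% ± 2.66 GC (SD, n = 22), against a median of 49.1% over the coding starts of all genes. Gamma starts held 43.1% ± 3.65. The part of GC content in these peak calls was not tested.

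Near-identical paralogs limit these calls, since the authors kept reads that map to a unique place. In the late part of the beta exons 15.0% of 40-base words occur more than once in the locus, in that of alpha exons 16.8% and in that of gamma exons 10.5%. Before the coding start the shares were 0.210%, 0.141% and 1.82%. Reads from such words would be dropped, and the exons they come from cannot be told apart.

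A strong peak lay in the gap between the alpha and beta clusters, away from any annotated start of a member, from 37377493 to 37378160 in WT. Its −log10 q was 21.6 in WT, 5.67 at 1 week and 12.2 after 5 weeks, with folds of 7.22, 3.35 and 3.89. These values rank it at percentile 96.3, 86.4 and 88.7 of the respective lists, and in WT it was above every start peak of a variable exon. A second peak in this gap, from 37411711 to 37412289, was listed at 5 weeks only, at 1.51. Within the alpha cluster, 2 regions in the intron between the second and the third constant exon were listed. The peak at 37338096 had 1.67 in WT, 3.66 at 1 week and 4.02 after 5 weeks, and that at 37339769 had 4.50 at 1 week and 4.05 at 5 weeks, and was not listed in WT.

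In the gamma cluster a peak over the first constant exon, at 37984675 to 37984733, showed a −log10 q of 2.33 in WT, 4.09 at 1 week and 6.15 after 5 weeks. A peak of the 5 week list, from 38000996 to 38002693, covered the end of the last constant exon at 3.27, and it overlapped peaks of the other 2 lists that lay past the end of the cluster. No peak fell on an alpha constant exon.

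**Figure D4:**
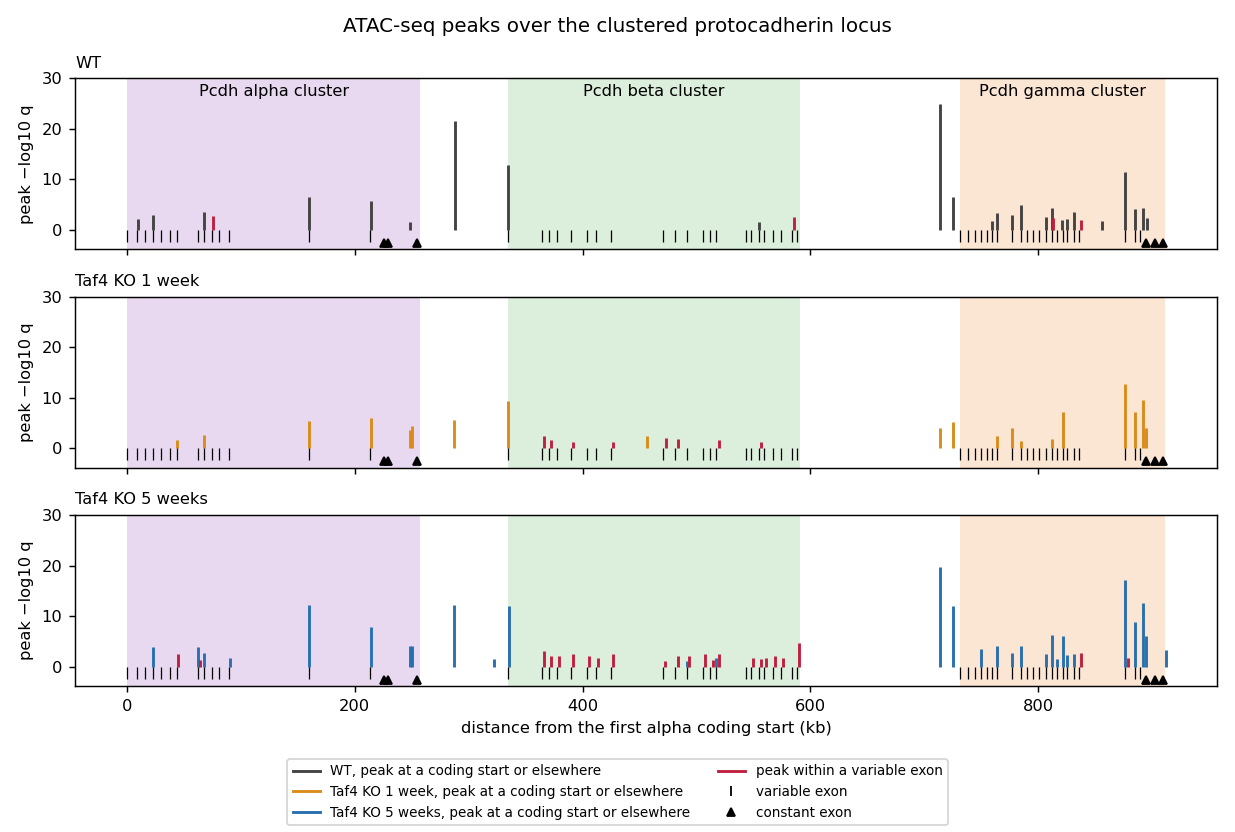
All peaks over the locus in the 3 libraries, drawn as lines whose height is the −log10 q, against the distance in kb from the first alpha coding start, where shading marks the clusters, ticks the variable exons, triangles the constant exons and red lines peaks within a variable exon only. Lines recur in all 3 libraries in the gaps between the clusters, at Pcdhb1 and at the C-type gamma exons Pcdhgc3 and Pcdhgc4. In the gap between alpha and beta the strongest line is 21.6 in WT, 5.67 at 1 week and 12.2 at 5 weeks. Between beta and gamma it is 24.9, 5.30 and 19.8. Red lines fill the beta cluster at 5 weeks.

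In all, 26 peaks overlapped the clusters in WT, 25 at 1 week and 49 after 5 weeks. Per Mb this was 27.2, 11.7 and 95.5 peaks over alpha, beta and gamma in WT, against 21.4 over chromosome 18. At 1 week the values were 23.3, 39.0 and 53.7, against 42.5, and at 5 weeks 38.9, 85.8 and 101, against 50.1. The beta cluster thus lay below the chromosome in WT and at 1 week and above it at 5 weeks. Of the 26 WT peaks 18 were start peaks, 4 lay within an exon, 1 touched a constant exon and 3 lay elsewhere. At 1 week the numbers were 12, 8, 1 and 4 and at 5 weeks 21, 23, 2 and 3.

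Of the WT peaks over the clusters 14 of 26, or 53.8% (35.5 to 71.2), met a peak of the 1 week list, and 19 of 26, or 73.1% (53.9 to 86.3), a peak of the 5 week list. In the whole WT list 61.9% and 79.5% of peaks did. Both Taf4 KO lists overlapped 14 of the 26, and neither did for 7. By contrast 23 of 25 peaks of the 1 week list, or 92.0% (75.0 to 97.8), were overlapped at 5 weeks, against 52.8% of that whole list. Of the 49 peaks at 5 weeks 20 were in no other list.

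Of the genes in the gap between the beta and gamma clusters, Taf7 and 3222401L13Rik were called in every list and Slc25a2 in none. Taf7, a TFIID subunit gene like Taf4, lies on the minus strand. The −log10 q of its promoter peak was 24.9 in WT, 4.06 at 1 week and 19.8 after 5 weeks, which rank at percentile 97.8, 79.8 and 95.9. The neighbouring 3222401L13Rik had 6.48, 5.30 and 12.1. Slc25a2 codes for a mitochondrial ornithine carrier. Outside the locus, the histidyl-tRNA synthetase genes Hars and Hars2 share a promoter peak, which had 19.5, 7.56 and 22.3, and Zmat2 had 21.8, 10.4 and 30.8. On the other side Diap1, a formin gene, had 15.8, 4.40 and 21.4, and Hdac3, a histone deacetylase gene, shares with Rell2 a peak of 8.60, 2.77 and 7.86. Fchsd1 had 5.19, 1.46 and 8.01. In −log10 q all of these were lowest at 1 week. By percentile within its list 3222401L13Rik was lowest in WT, at 68.7, against 85.1 at 1 week and 88.5 after 5 weeks. The others were lowest at 1 week by percentile too. Arap3 was called at 5 weeks only, at 3.35, and Gm6756 in no list. Gm10545, antisense within the alpha cluster, was called at 5 weeks through the peak at Pcdha12. Of the 13 genes in or within 150 kb of the locus that are no members, 9 were called in WT, 9 at 1 week and 11 after 5 weeks.

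Nonclustered protocadherins, which lie outside these clusters, had a promoter peak in 6, 9 and 9 of 12 genes, in the order WT, 1 week, 5 weeks, and the difference from the members was not tested. Pcdh10 had a −log10 q of 8.50, 18.7 and 24.2, and Pcdh17 had 9.99, 8.65 and 11.4. Pcdh18 and Pcdh19 had none in WT and 7.28 and 3.87 at 1 week, and Pcdh9 and Pcdh12 had none in any list. Of 19 classical cadherins 12, 14 and 16 had a promoter peak. Cdh1, the epithelial cadherin of islet cells, showed a −log10 q of 10.7 in WT, 14.9 at 1 week and 15.8 after 5 weeks.

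The factors known to loop and silence the clusters had accessible promoters of their own. All 11 genes of CTCF, cohesin and its loaders were called in every list, with Ctcf at a −log10 q of 11.4, 3.48 and 10.2. Of 11 silencing factors 11 were called in WT, 9 at 1 week and 11 after 5 weeks. Smchd1, which keeps many clustered protocadherins silent, had 15.3, 8.71 and 13.9. Setdb1 and Ehmt2, both histone H3K9 methyltransferases, had no promoter peak at 1 week, after 5.34 and 10.6 in WT. Both were called again at 5 weeks, at 2.87 and 5.81. Over the whole genome 14.5% of the genes called in WT were not called at 1 week, and a link to the clusters was not tested.

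Many promoters of the family, though not all, are known for a shared short element with the letters CGCT. These letters, on either strand, were found in the 300 bp before the coding start of all 58 variable exons, against 57.3% of the 31679 coding starts of all genes. They were present whether or not a peak was called. So short a word can occur by chance, and its presence does not show the whole element, which was not searched for. The window before a coding start need not be a promoter, so the share over all genes is not a comparison with promoters. The CTCF core GGNGGCAG was found in 1 of 14 alpha, 1 of 22 beta and 0 of 22 gamma exons, against 13.2% of all coding starts. No match says only that these letters are not in this window.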

How the data were processed

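ATAC-seq was analysed in 3 libraries, 1 per group, as the labels give them. The authors mapped reads to mm9 with Bowtie 1.0.0, keeping unique alignments, after bcl2fastq 2.17.1.14, and called broad peaks per library with MACS2 2.1.1. No control library, duplicate removal or read shift is stated. The deposited lists hold, per peak, a fold over local background (a ratio), −log10 p and −log10 q, each averaged by the authors' caller, and a whole-number score that the authors' caller derives from the −log10 q and that was not used here. The 2 mitochondrial peaks of each list were left out. Read alignments were not used here, so depth was read from the lists.

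Genes and starts came from the GENCODE annotation of NCBIM37, which is mm9, and RefSeq symbols (GRCm38) served for names and order only. The members and comparison lists were chosen with earlier results of these data known, and variable exons were added after the lists were seen. Named were members with a promoter peak, the C-type exons, the 10 strongest cluster peaks per list and the genes in or next to the locus. Other variable exons with a start peak, the exons marked within, single genes of the comparison lists and other peaks were named after their values were seen. Comparison lists were nonclustered protocadherins, classical cadherins, CTCF and cohesin, silencing factors and markers of endocrine, neuronal, endothelial, and stellate and fibroblast cells; 1 further marker list is not reported here. Peaks counted as shared from 1 bp of overlap. Wilson 95% intervals cover the counting of genes, exons or peaks only, not animals. Alternatives were −log10 q of at least 3 or 5, lists of equal number or covered length, rescaling to the WT depth, other windows, overlaps and bounds. The depth estimate was tested on simulated data. Python 3.11.15, numpy 2.4.6, pandas 2.3.3, scipy 1.17.1 and matplotlib 3.10.9 were used.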

Additional observations from a re-analysis of the deposited data

Results flagged for a closer look

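The number of clustered protocadherin genes with a promoter peak moved in opposite directions in the Taf4 KO libraries, by -1 gene at 1 week and by 1 gene at 5 weeks against WT. The share of all protein-coding genes with a promoter peak moved in the same directions, from 59.0% in WT to 55.9% at 1 week and 65.6% at 5 weeks. The difference was not tested, since each group is 1 library. The genes behind it are Pcdhb17, called in WT only, and Pcdhb11 and Pcdhb14, called at 5 weeks only.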

How the results depend on the processing

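No paired analysis was possible because each group holds 1 library and no result comes from a test. With peaks of −log10 q of at least 3 or 5, the member genes called at 5 weeks came to 3 and 3 (5 as deposited), and the net changes against WT to 0 and 0 at 1 week and 0 and 0 at 5 weeks. With lists of equal number, of equal covered length or rescaled to the WT depth, the 5 week count was 3, 3 and 3 and its net change was reversed, to -1, -1 and -1. It was 0 when the peak had to cover the start itself and 0 with an overlap of at least 100 bp. Peaks over the clusters came to 11 and 4 in WT (26 as deposited), 11 and 7 at 1 week (25) and 19 and 9 at 5 weeks (49) with −log10 q of at least 3 and 5. With equal number, equal length and the WT depth they came to 15, 15 and 15 at 1 week and 19, 10 and 16 at 5 weeks. WT peaks overlapped at 1 week came to 6 and 4 (14 as deposited), and at 5 weeks to 9 and 4 (19), at the 2 stricter thresholds. Fewer peaks enter each of these settings by construction. The variable exon counts under the same settings were chosen after seeing the data.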
